A study of Homo sapiens with 32 samples.

Results

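The genes described here are 7 that handle carbonic acid and lactic acid in the cytosol and at the cell surface: the carbonic anhydrases CA9, CA12 and CA2, the lactate carriers SLC16A1 and SLC16A3, their partner BSG, and the bicarbonate importer SLC4A7. They were taken by gene symbol from the protein-coding rows of the count tables and are 7 of 19815 protein-coding genes. All 7 passed the filter on low counts in both cell lines.

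Cells that break down glucose to lactate release protons, and cells that respire release CO2, so acid has to be moved out for the cytosol to stay neutral. Carbonic anhydrases hydrate CO2 to bicarbonate and a proton: CA9 and CA12 are anchored in the plasma membrane with the catalytic domain outside, whereas CA2 is cytosolic. SLC16A1 (MCT1) and SLC16A3 (MCT4) carry lactate together with a proton, BSG (basigin, CD147) is the chaperone that brings both carriers to the membrane, and SLC4A7 (NBCn1) brings bicarbonate in with sodium. CA9 and SLC16A3 are textbook targets of the hypoxia-inducible transcription factor HIF-1.

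Total (T) and polysome-bound (P) mRNA was sequenced from MCF10A, an immortalised non-tumourigenic breast epithelial line, and from MDA-MB-231, a line from a triple-negative breast carcinoma. Each line was kept in normoxia (N), in hypoxia at 0.5% O2 for 24 hours (H), in normoxia with 2.5 µM PP242 for 3 hours (NPP), or in hypoxia with the same PP242 treatment (HPP). PP242, an inhibitor of the active site of the kinase mTOR, was dissolved in DMSO. The methods name DMSO also as the vehicle of the controls. Both lines are cultures of a single cell line each, with 2 biological replicates in each of 8 groups per line, so 32 libraries in all. Library totals lay between 18340916 and 46032327 counts (median 34561484).

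The oxygen label was checked on 9 hypoxia genes that are not among the 7: in total RNA, 7 of the 9 were called higher in hypoxia in MCF10A and 6 of 9 in MDA-MB-231. Of all genes, 1.54% and 1.27% were called in these comparisons. The PP242 label was checked on 5 mRNAs with terminal oligopyrimidine tracts, whose polysome loading needs mTOR: 3 of 5 were called lower in the polysomal RNA of HPP in MCF10A and 5 of 5 in MDA-MB-231, where 22.2% and 19.4% of all genes were called. In NPP the same count was 0 of 5 in MCF10A and 3 of 5 in MDA-MB-231, against 0.823% and 1.95%. In MCF10A polysomal RNA the 5 summed to 7036 and 4558 CPM (counts scaled to a common library size) in N and to 1939 and 2207 CPM in NPP, without overlap. Basal keratins marked the MCF10A libraries, with KRT5 between 1190 and 3268 CPM and KRT14 between 458 and 4203, and were at most 0.284 and 0.610 CPM in MDA-MB-231. Epithelial markers summed to 1898 to 3622.5 CPM in MCF10A total RNA of N and NPP, and to 3846 to 7964 in H and HPP. The polysomal sums were 2131 to 4677 and 5282 to 8911 CPM, and in neither fraction did these groups overlap. The epithelial cadherin CDH1 did not exceed 0.361 CPM in MCF10A, EPCAM did not exceed 0.461 and TP63 did not exceed 0.226, so these 3 epithelial markers were near 0 in that line. In MDA-MB-231, EPCAM stood at 9.86 to 19.1 CPM. Of the mesenchymal markers, VIM lay between 1691 and 9369.9 CPM in MCF10A and between 3113 and 6082 in MDA-MB-231, and AXL between 225 and 401 and between 700 and 1053. ZEB1 lay between 4.69 and 32.6 CPM in MCF10A and between 43.6 and 88.2 in MDA-MB-231, whereas SPARC was at 91.7 to 203 CPM in MCF10A and at most 0.796 in MDA-MB-231. The ESR1 level of MDA-MB-231 was at most 0.215 CPM and its PGR level at most 0.625, against 25.7 to 46.5 for ERBB2. The 8 markers of other cell types summed to 3.90 to 6.03 CPM in the N and NPP libraries of MCF10A and to 11.6 to 20.4 CPM in its H and HPP libraries, without overlap, and to 10.8 to 20.1 CPM in MDA-MB-231. The collagen gene COL1A1 was the most abundant (3.62 to 19.2 CPM in MCF10A and 8.44 to 16.5 in MDA-MB-231), followed by PECAM1 (at most 1.81 and 2.17 CPM). In MCF10A the fibroblast genes COL3A1 and LUM did not exceed 0.0902 and 0.0483 CPM, and the T-cell marker CD3E was at 0 in every library. In RNA from whole cultures, fewer cells that express a gene and less RNA per cell cannot be told apart.

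Several MCF10A libraries differed from their replicate in a way that went with transcript length. The NPP total replicates stood furthest apart, with an SD of 1.19 for the log2 difference across genes. Relative to replicate 1, replicate 2 was lower by a median of -1.17 (log2) for transcripts of 5177 bases or more and higher by 0.911 for those of 2016 bases or less. The HPP total replicates had medians of -0.809 and 0.49 for the same classes, and the normoxic polysomal replicates 0.594 and -0.713. SLC4A7 (8079 bases) and CA12 (6098 bases) fall in the long class, and CA9 (1546), CA2 (1562) and BSG (1946) in the short class. In a fit with an offset for transcript length in each library, chosen after the data were seen, no member call for H, HPP or normoxic polysome loading was lost in either line, and in MCF10A CA2 with H and SLC16A3 and SLC16A1 with HPP were called in addition, as given with each gene. The comparison of the lines was not fitted with this offset.

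The genes lie on 7 different chromosomes (GRCh38, GENCODE v44). CA9 occupies chr9:35673928-35681159 on the plus strand, SLC16A3 chr17:82217934-82261129 (plus), BSG chr19:571277-583494 (plus), CA12 chr15:63321378-63381846 (minus), SLC16A1 chr1:112911847-112957593 (minus) and SLC4A7 chr3:27372721-27484420 (minus). The library kit has no stated strand, so reads from exons shared with a gene on the opposite strand cannot be told apart. CA9 shares 571 exon bases with ARHGEF39, which held 478 to 836 counts in MCF10A and 322 to 920 in MDA-MB-231. SLC16A3 shares 482 with CSNK1D (5370 to 12313 and 2667 to 8173 counts), and BSG shares 140 with the antisense RNA BSG-AS1.

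The promoters of the 3 genes with hypoxia calls are shown because HIF binds the letters ACGTG or GCGTG, the core of the hypoxia response element. Each window holds the 250 bases before a RefSeq transcription start (GRCh38.p14), written 5′ to 3′ on the strand of the gene, with a core on either strand in capitals. The CA9 window is chr9:35673678-35673927 (plus strand), the SLC16A3 window chr17:82228792-82229041 (plus strand) and the CA12 window chr15:63381847-63382096 (minus strand).
CA9: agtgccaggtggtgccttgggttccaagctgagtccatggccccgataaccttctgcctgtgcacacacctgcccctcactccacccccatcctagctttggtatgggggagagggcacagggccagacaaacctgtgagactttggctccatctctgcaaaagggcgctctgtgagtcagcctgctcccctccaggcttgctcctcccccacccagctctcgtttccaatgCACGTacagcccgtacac
SLC16A3: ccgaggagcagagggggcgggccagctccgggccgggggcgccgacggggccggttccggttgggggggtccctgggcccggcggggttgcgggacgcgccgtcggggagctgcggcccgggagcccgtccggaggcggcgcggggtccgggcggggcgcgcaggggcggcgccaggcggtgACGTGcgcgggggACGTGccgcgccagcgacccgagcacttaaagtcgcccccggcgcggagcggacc
CA12: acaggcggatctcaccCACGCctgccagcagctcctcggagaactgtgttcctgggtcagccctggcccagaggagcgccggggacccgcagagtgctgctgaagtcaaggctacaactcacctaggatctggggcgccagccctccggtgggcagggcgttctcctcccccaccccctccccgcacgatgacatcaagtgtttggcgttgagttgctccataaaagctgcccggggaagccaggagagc
In the CA9 window the single core is ACGTG on the opposite strand, with its first base 18 bases before the start. The SLC16A3 window, 1 of 5 listed for that gene, holds ACGTG at 68 and at 55 bases before the start. It is the one of the 5 with ACGTG: of the others, 2 held no core and 2 held GCGTG alone, 3 times and 1 time. In CA12 the single core is GCGTG on the opposite strand, 234 bases before the start. Among 35116 promoter windows of the same length, 18.5% held ACGTG, 32.2% held GCGTG and 43.2% held either, so a core by itself is common. Of the genes without a hypoxia call, SLC4A7 had 2 GCGTG cores in the first of its windows, and 1 BSG window held 4 GCGTG cores and a CACGTG that reads as ACGTG on both strands. No window is given for CA2 or SLC16A1.

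Which of the 7 genes responded to low oxygen was asked first, by comparing H with N in each fraction and line. A gene was called where the adjusted p of the edgeR quasi-likelihood test was under 0.05. In MCF10A, CA9 and CA12 were called, 2 of 7 genes in total RNA against 1.54% of all 13124 genes tested and 2 of 7 in polysomal RNA against 1.49%. In MDA-MB-231, CA9 and SLC16A3 were called, 2 of 7 in total RNA against 1.27% of 13510 genes and 2 of 7 in polysomal RNA against 2.29%. The median log2 fold change of the 7 genes in total RNA was 0.70 for MCF10A and 0.12 for MDA-MB-231, beside -0.03 and -0.02 over all genes. Under HPP, CA9, CA12 and CA2 were called in MCF10A, 3 of 7 in total RNA against 14.9% of genes and 3 of 7 in polysomal RNA against 22.2%. In MDA-MB-231 the HPP calls were again CA9 and SLC16A3, 2 of 7 against 13.2% in total and 2 of 7 against 19.4% in polysomal RNA. H, NPP and HPP share the same normoxic libraries.

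**Figure D1:**
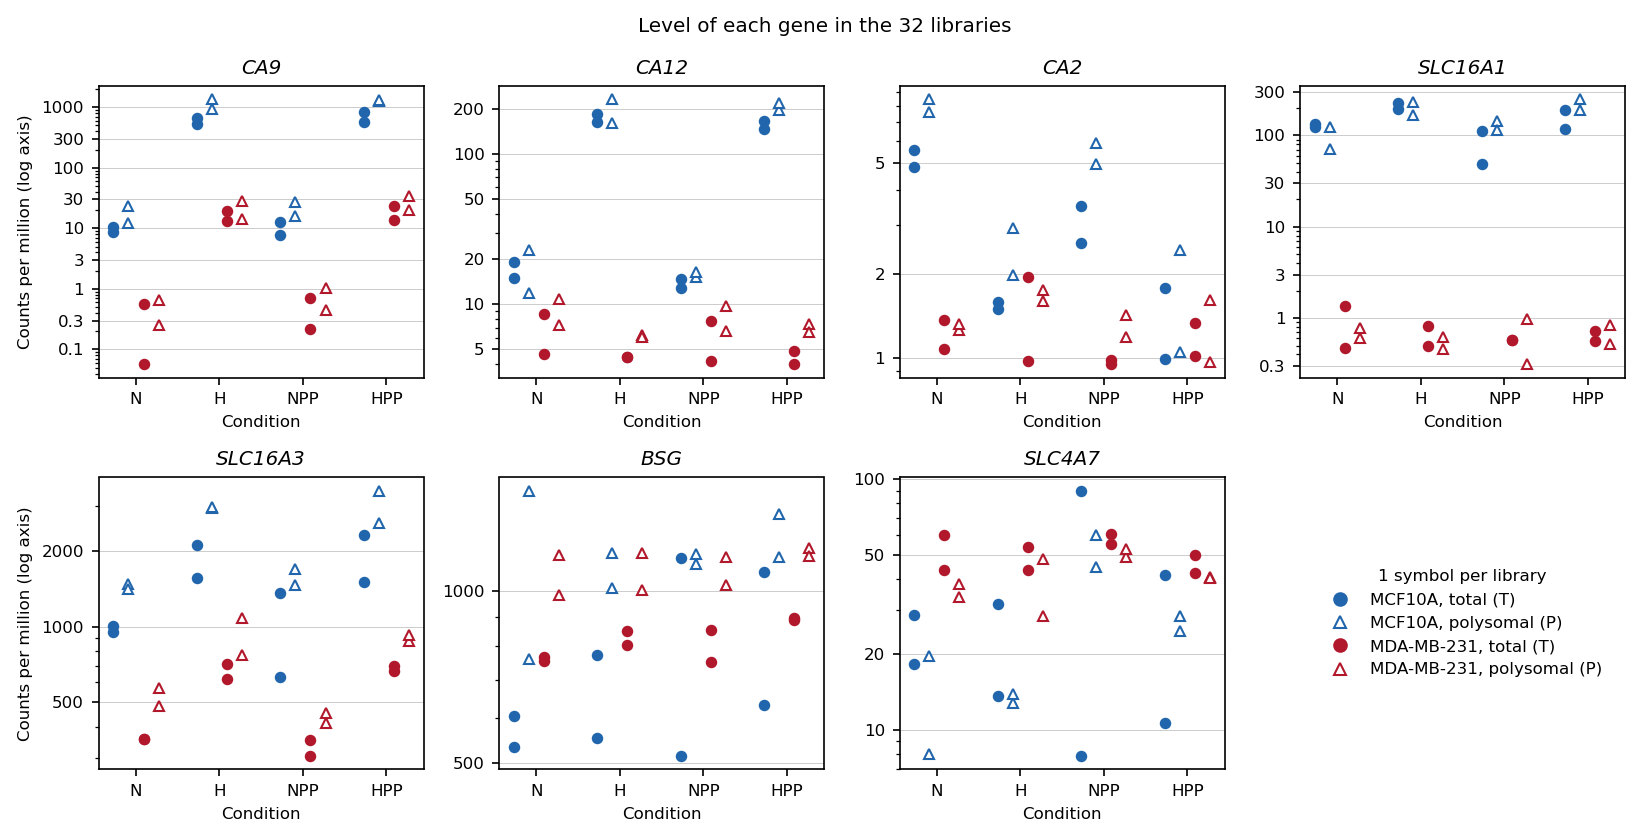
Scaled level (CPM) of each gene (log axis) in the 32 libraries by condition, 1 symbol per library, filled circles for total and open triangles for polysomal RNA, blue for MCF10A and red for MDA-MB-231. The CA9 symbols of H and HPP lie above those of N and NPP in both lines, those of CA12 in MCF10A only, and SLC16A1 lies near 1 CPM or below in MDA-MB-231.

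CA9, a membrane enzyme whose catalytic domain faces outwards, had the largest change of the 7 genes. In MCF10A total RNA it stood at 10.4 and 8.64 CPM in N and at 522 and 658 CPM in H. In polysomal RNA the N libraries had 23.6 and 12.4 CPM and the H libraries 1356 and 919. The lowest hypoxic library was far above the highest normoxic one in either fraction. The change was 5.95 ± 0.48 on the log2 scale (SE, n = 2 against 2, adjusted p = 0.000161 by edgeR's quasi-likelihood test) in total RNA, a 62.0-fold rise and rank 19 of 13124 genes. In polysomal RNA it was 5.98 ± 0.48 (adjusted p = 0.000126), and 6.05 and not called when only the polysomal N and H libraries were fitted (adjusted p = 0.0697). With HPP, CA9 reached 569 and 829 CPM in total RNA and 1283 and 1310 CPM in polysomal RNA, changes of 6.20 ± 0.49 and 6.17 ± 0.49 from N (adjusted p = 7.28e-05 and 5.02e-05). PP242 alone left it at 7.72 and 12.8 CPM in total RNA, overlapping N.

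CA9 was much lower in MDA-MB-231 in every condition and rose in hypoxia as well. Its normoxic total libraries held 16 counts and 1 count, 0.574 and 0.0568 CPM, and the hypoxic ones 19.2 and 13.0 CPM. In polysomal RNA the values were 0.653 and 0.258 CPM in N and 28.7 and 14.4 CPM in H. Again no hypoxic library overlapped a normoxic one. The log2 change was 5.46 ± 0.67 in total (adjusted p = 0.000445) and 5.62 ± 0.64 in polysomal RNA (adjusted p = 0.000257), and with HPP 5.67 ± 0.67 and 5.96 ± 0.64 (adjusted p = 0.000161 and 3.08e-05). Because 1 normoxic library rests on 1 count, the size of the change in total RNA depended on it: without normoxic total replicate 1 the value was 8.06, and without replicate 2 it was 4.81, called in both cases. With both lines scaled together, the highest hypoxic library of MDA-MB-231, in HPP polysomal RNA, had 31.0 CPM. The highest normoxic library of MCF10A, in NPP polysomal RNA, was close to it at 29.1 CPM. Line and count table cannot be told apart in such levels.

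CA12, the other membrane enzyme, followed oxygen in MCF10A. Its total RNA level was 15.0 and 19.1 CPM in N, 185 and 164 CPM in H and 167 and 147 CPM in HPP. In polysomal RNA it was 11.8 and 23.1 CPM in N, 162 and 232 CPM in H and 196 and 220 CPM in HPP. The H and HPP libraries lay between 147 and 232 CPM and the N and NPP ones between 11.8 and 23.1 CPM, without overlap. The change with H was 3.36 ± 0.33 on the log2 scale in total RNA (adjusted p = 0.000457), a 10.2-fold rise and rank 93 of 13124, and 3.49 ± 0.33 in polysomal RNA (adjusted p = 0.000349). HPP gave 3.20 ± 0.33 and 3.57 ± 0.34 (adjusted p = 0.000204 and 0.000103). When only the polysomal N and H libraries were fitted, CA12 (3.57, adjusted p = 0.0814) did not pass the threshold either.

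In MDA-MB-231, CA12 did not rise. Its total RNA level was 8.65 and 4.66 CPM in N, 4.45 and 4.46 in H, 7.77 and 4.2 in NPP and 4.86 and 3.98 in HPP. The polysomal libraries had 10.8 and 7.26 CPM in N and 6.21 and 6.01 CPM in H. Both hypoxic libraries were below both normoxic ones in each fraction, but the changes of -0.59 ± 0.33 in total and -0.56 ± 0.32 in polysomal RNA did not pass the test (adjusted p = 0.486 and 0.391). The total value was -0.06 without normoxic total replicate 1 and -0.96 without replicate 2, and the polysomal value -0.20 and -0.85 without normoxic polysomal replicates 1 and 2. Under HPP the values were -0.60 ± 0.32 and -0.37 ± 0.31 (adjusted p = 0.238 and 0.435), and the latter became 0.01 without normoxic polysomal replicate 1. The former was -0.07 and -0.97 without normoxic total replicates 1 and 2.

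CA2, the cytosolic enzyme (chr8:85463968-85481493, plus strand), was the member that fell. In MCF10A total RNA it was at 4.83 and 5.58 CPM in N, 1.59 and 1.50 in H, 2.58 and 3.52 in NPP and 0.989 and 1.78 in HPP. The polysomal values were 7.61 and 8.46 CPM in N, 2.93 and 1.99 in H, 4.96 and 5.91 in NPP and 1.05 and 2.44 in HPP. In both fractions every treated library was below both N libraries, and every H and HPP library was below both NPP libraries. The HPP changes were called, at -1.91 ± 0.42 in total and -2.20 ± 0.42 in polysomal RNA (adjusted p = 0.0109 and 0.00397). The H changes were nearly as large, at -1.75 ± 0.41 and -1.71 ± 0.41, and were not called (adjusted p = 0.0701 and 0.0709). With the replicate number as a block within each fraction they were, at -1.73 and -1.70 (adjusted p = 0.0316 and 0.0309), and with the transcript length offset too, at -1.81 and -1.73 (adjusted p = 0.0284 and 0.0298). Both H changes were also called without HPP polysomal replicate 1 or 2, and the total one when only the libraries compared were fitted. The HPP call in total RNA was lost without HPP total replicate 1 (-1.46, adjusted p = 0.10) or normoxic total replicate 2 (-1.81, adjusted p = 0.0741). In MDA-MB-231, CA2 lay between 0.949 and 1.96 CPM (24 to 68 counts) in all 16 libraries, and no change was called.

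SLC16A3, the carrier suited to lactate export, was abundant in both lines and rose in the hypoxic groups of MDA-MB-231. MDA-MB-231 total RNA had 360 and 358 CPM in N, 712 and 622 CPM in H and 663 and 700 CPM in HPP. Its polysomal RNA had 572 and 484 CPM in N, 1084 and 773 CPM in H and 875 and 925 CPM in HPP. No library with low oxygen overlapped N in either fraction. The change with H was 0.89 ± 0.16 on the log2 scale in total RNA (adjusted p = 0.0129) and 0.81 ± 0.16 in polysomal RNA (adjusted p = 0.0179), and with HPP 0.93 ± 0.16 and 0.77 ± 0.16 (adjusted p = 0.00291 and 0.00548). Both H calls were lost when only the libraries compared were fitted (0.90 and 0.82, adjusted p = 0.115 and 0.101). The H call in total RNA was lost without H total replicate 1 (0.79, adjusted p = 0.0867), normoxic total replicate 1 (0.90, adjusted p = 0.0839) or normoxic total replicate 2 (0.89, adjusted p = 0.127). The polysomal H call was lost without H replicate 1 (0.55, adjusted p = 0.109) or N replicate 2 (0.68, adjusted p = 0.177), and the polysomal HPP call without N replicate 2 (0.66, adjusted p = 0.0536).

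In MCF10A the SLC16A3 levels were higher and the changes of the same size but with a wider spread. Total RNA had 955 and 1003 CPM in N, 1557 and 2098 in H, 633 and 1354 in NPP and 1501 and 2317 in HPP. Polysomal RNA had 1469 and 1415 CPM in N, 2960 and 2972 in H, 1457 and 1685 in NPP and 2572 and 3457 in HPP. The H and HPP libraries lay above those of N in both fractions. The changes of 0.90 ± 0.36 and 1.04 ± 0.37 with H (adjusted p = 0.372 and 0.239), and 0.96 ± 0.37 and 1.06 ± 0.37 with HPP (adjusted p = 0.101 and 0.0573), were not called. With the replicate block within each fraction both HPP values were called (0.91 and 1.05, adjusted p = 0.0281 and 0.0111), and likewise with the transcript length offset (0.89 and 1.07, adjusted p = 0.0360 and 0.0123). They were also called without NPP total replicate 1 (0.96 and 1.06, adjusted p = 0.0355 and 0.0175) or without NPP total replicate 2 (1.02 and 1.13, adjusted p = 0.0436 and 0.0221). Those libraries belong to neither group compared. The total HPP value was 0.62 without HPP total replicate 2.

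SLC16A1, the carrier that works in either direction, was expressed very unequally between the lines. MCF10A total RNA had 134 and 124 CPM in N, 226 and 194 in H, 110.9 and 48.8 in NPP and 189 and 119 in HPP. Its polysomal RNA had 71.9 and 122 CPM in N, 166 and 231 in H, 144 and 114 in NPP and 190 and 249 in HPP. The H libraries lay above N in both fractions and those of HPP in polysomal RNA, whereas in total RNA HPP overlapped N. The changes with H were 0.70 ± 0.40 and 1.03 ± 0.40 (adjusted p = 0.624 and 0.295), and with HPP 0.25 ± 0.40 and 1.17 ± 0.40 (adjusted p = 0.730 and 0.0560). The polysomal HPP change was called with the replicate block within each fraction (1.2, adjusted p = 0.0110) and with the transcript length offset (1.09, adjusted p = 0.0159). It was also called without either HPP total library (1.24 each, adjusted p = 0.0446 without replicate 1 and 0.0451 without replicate 2) or either NPP total library (1.17 and 1.24, adjusted p = 0.0201 and 0.0146). In MDA-MB-231, SLC16A1 lay between 0.312 and 1.36 CPM in all 16 libraries, from 11 to 35 counts. The antisense RNA SLC16A1-AS1, which shares 231 exon bases with SLC16A1, had 65 to 462 counts in MCF10A and 0 to 2 in MDA-MB-231.

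BSG, the partner of both carriers, had no called change with H, NPP or HPP in either line. In MDA-MB-231 total RNA it stood at 754 and 765 CPM in N, 806 and 850 in H, 752 and 855 in NPP and 897 and 889 in HPP. The H and HPP libraries were above N without overlap, but the changes of 0.12 ± 0.14 and 0.23 ± 0.14 were not called. In MCF10A total RNA the replicates spread widely, at 534 and 605 CPM in N, 554 and 772 in H, 515 and 1141 in NPP and 633 and 1077 in HPP. The changes there were 0.22 ± 0.42 with H and 0.59 ± 0.42 with HPP, not called. The H value was 0.44 without H total replicate 1 and -0.050 without replicate 2, and the HPP value 1.01 without HPP total replicate 1 and 0.16 without replicate 2. The polysomal libraries lay between 759 and 1495 CPM in MCF10A and between 985 and 1189 CPM in MDA-MB-231, and there every treated group overlapped N in both lines.

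SLC4A7, the bicarbonate importer, did not change with oxygen in either line by this test, and its MCF10A values were the most uneven between replicates. Total RNA had 28.7 and 18.3 CPM in N, 31.9 and 13.7 in H, 89.8 and 7.87 in NPP and 41.3 and 10.6 in HPP. Polysomal RNA had 8 and 19.7 CPM in N, 12.8 and 13.9 in H, 59.8 and 44.6 in NPP and 28.5 and 24.8 in HPP. Replicate 1 was higher than replicate 2 in all 4 total pairs, and the NPP pair differed most. In polysomal RNA both PP242 groups lay above N. The NPP change was 1.91 ± 0.91 in polysomal RNA (adjusted p = 0.403) and 1.06 ± 0.89 in total RNA, and the latter was 0.36 with the replicate block within each fraction, -1.58 without NPP total replicate 1 and 1.93 without replicate 2. In MDA-MB-231 total RNA, SLC4A7 lay between 42.3 and 60.6 CPM in the 8 libraries, and the polysomal libraries between 28.4 and 52.8 CPM.

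**Figure D2:**
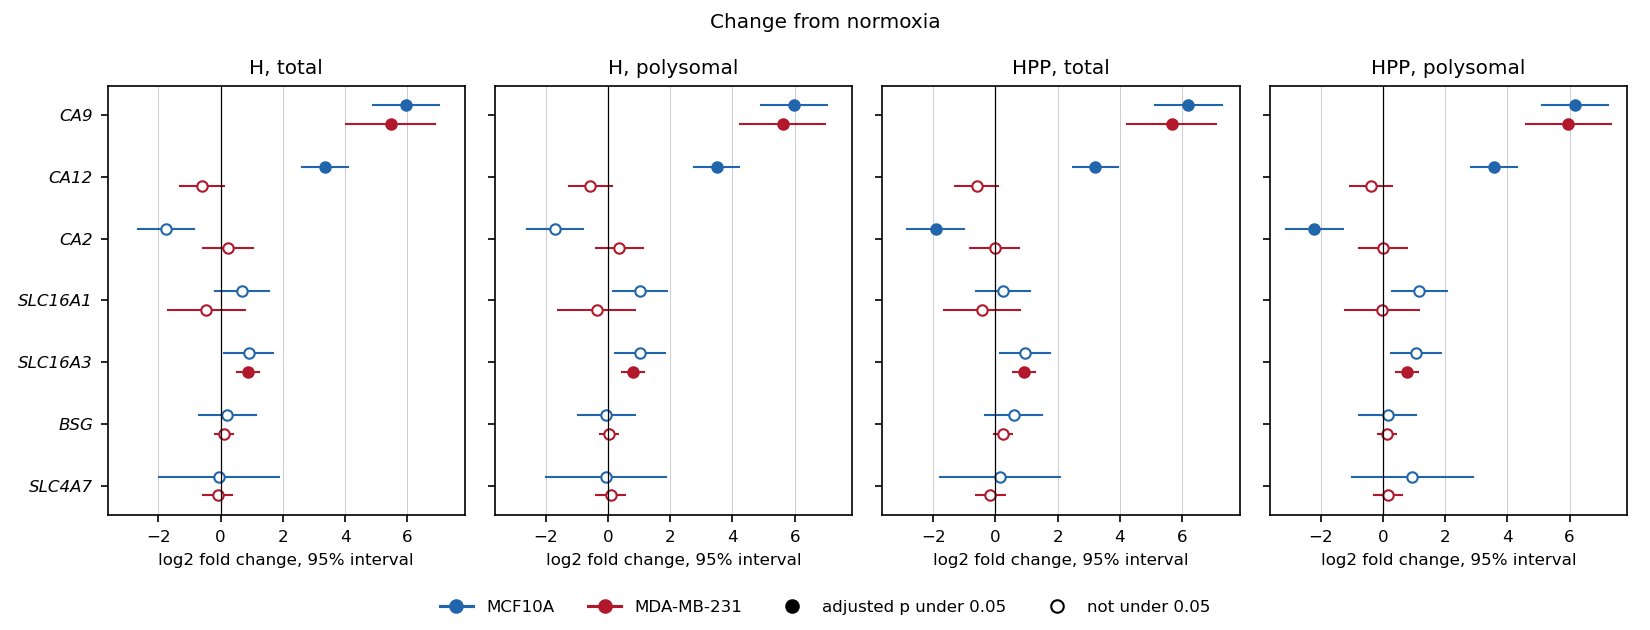
log2 fold change of each gene from normoxia with its 95% interval, for H and HPP in total and polysomal RNA, blue for MCF10A and red for MDA-MB-231, filled where the adjusted p was under 0.05. CA9 is filled in all 4 panels in both lines, CA12 only in MCF10A and SLC16A3 only in MDA-MB-231, while the intervals of SLC16A3 overlap between the lines.

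Whether PP242 by itself moved these genes was asked by comparing NPP with N. No member was called in either line or fraction (0 of 7 in each of the 4 comparisons). The background was 0.648% of genes in MCF10A total RNA, 0.823% in MCF10A polysomal, 0.555% in MDA-MB-231 total and 1.95% in MDA-MB-231 polysomal RNA. At an unadjusted p under 0.05 there were 1252 genes in total and 1752 in polysomal RNA of MCF10A, of 13124 tested. In MDA-MB-231 there were 1385 and 1838 of 13510. Of the member tests, 0 of 14 in MCF10A and 1 of 14 in MDA-MB-231 were under that threshold, and DESeq2 called 0 in each. The 1 was SLC4A7 in polysomal RNA, with 33.9 and 38.0 CPM in N and 48.7 and 52.8 CPM in NPP, a change of 0.50 ± 0.22 (adjusted p = 0.326). In the polysomal RNA of both lines SLC4A7 was thus higher in both NPP libraries than in both N libraries, and in neither line was the change called. SLC16A3 in MDA-MB-231 lay below N in both fractions of NPP, at 307 and 355 CPM in total and 456 and 413 CPM in polysomal RNA, changes of -0.12 ± 0.16 and -0.28 ± 0.16 that were not called (adjusted p = 0.913 and 0.499).

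PP242 within hypoxia, HPP against H, gave no member call either. The background was 3.74% of genes in total and 6.5% in polysomal RNA of MCF10A, and 3.78% and 11.5% in MDA-MB-231. CA9 changed by 0.24 ± 0.39 in MCF10A total RNA and by 0.21 ± 0.45 in MDA-MB-231 total RNA. The 95% intervals, -0.61 to 1.10 and -0.75 to 1.17, still include a change of more than 2-fold upward. The test of HPP beyond the sum of H and NPP called no member, against 0% of genes in both fractions of MCF10A and 0.0074% in both fractions of MDA-MB-231. For these 2 questions, 0 of 14 member tests in each line had an unadjusted p under 0.05 and DESeq2 called 0. Over all genes, the test beyond the sum had 230 genes in total and 356 in polysomal RNA of MCF10A at an unadjusted p under 0.05. In MDA-MB-231 it had 133 and 563. HPP against H had 2078 and 2752 of 13124 genes under that threshold in MCF10A and 2500 and 3592 of 13510 in MDA-MB-231.

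Translational efficiency (Te), the log2 fold change on polysomes less the log2 fold change of the whole mRNA pool, was fitted as a fraction-by-treatment term. The total and polysomal libraries of a condition and replicate share a number in their titles, called the culture number here. The labels do not say what it stands for. The log2 differences between replicates in total and in polysomal RNA of a condition correlated at r of -0.25 to 0.214 in MCF10A. In MDA-MB-231 r was 0.00239 to 0.348. The main fits of Te and of loading did not pair the total and polysomal libraries. No member had a called Te under any of the 3 treatments in either line. For H, NPP and HPP the background in MCF10A was 0% of genes each time. In MDA-MB-231 it was 0.0148%, 0.34% and 0.696%. None of the 21 member tests in each line had an unadjusted p under 0.05, DESeq2 called 0, and in MCF10A 23, 296 and 433 of all genes had an unadjusted p under 0.05 for H, NPP and HPP. In MDA-MB-231 these counts over all genes were 180, 295 and 454. A rule on the z-score of this Te together with the polysomal adjusted p also marked 0 members. For H, NPP and HPP it marked 14, 4 and 341 of 13124 genes in MCF10A and 20, 100 and 188 of 13510 in MDA-MB-231. The rule differs from that of the study, which took efficiency as the quotient of both log2 changes and not as their difference. The Te of CA9 in hypoxia was 0.03 ± 0.56 in MCF10A, with a 95% interval from -1.19 to 1.25, and 0.16 ± 1.07 in MDA-MB-231 (-2.13 to 2.45). The rises of CA9 in total and polysomal RNA were thus close in size, and both intervals include a 2-fold change of its efficiency in either direction. SLC16A1 in MCF10A had a Te of 1.10 ± 0.56 for NPP and 0.92 ± 0.56 for HPP. The NPP value was 1.82 without NPP total replicate 1 and 0.62 without replicate 2, the pair that stood furthest apart.

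**Figure D3:**
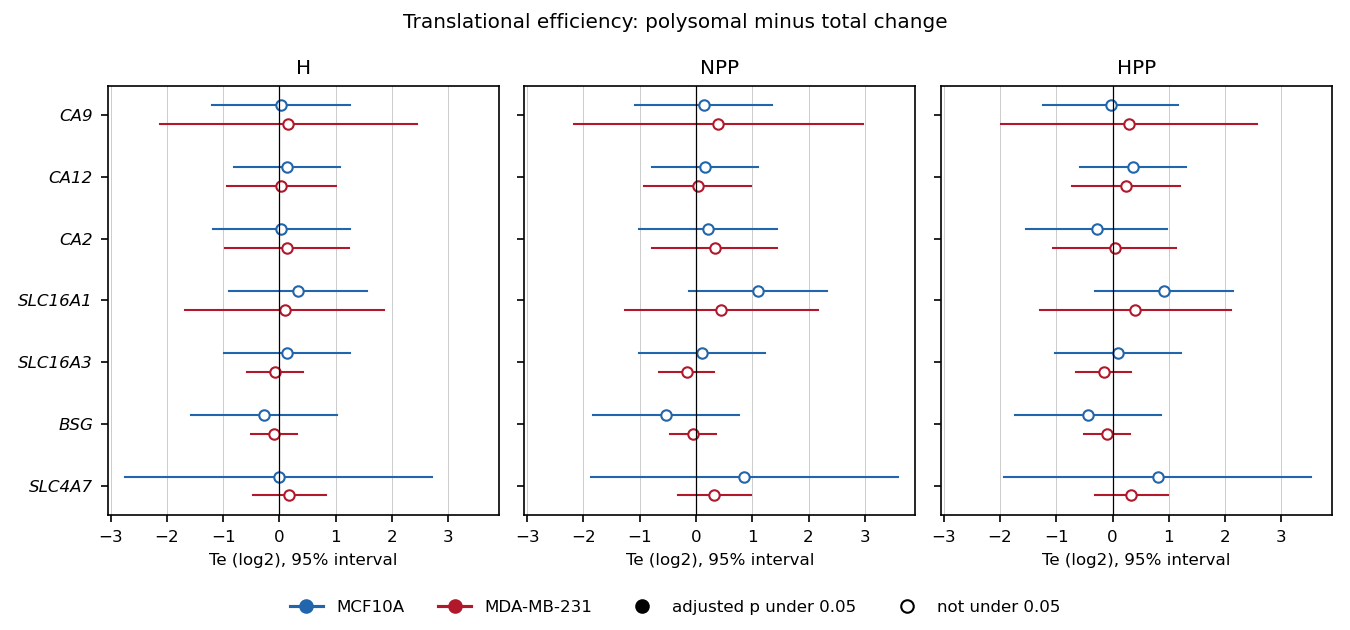
Translational efficiency of each gene under H, NPP and HPP, as the polysomal minus the total log2 change with its 95% interval, blue for MCF10A and red for MDA-MB-231, open where the adjusted p was not under 0.05. Every symbol is open and every interval includes 0.

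The share of each mRNA on polysomes before treatment was compared as P against T in normoxia, relative to the average mRNA because each library was scaled. In MDA-MB-231, BSG and SLC16A3 were called above the average, 2 of 7 against 13.1% of genes. BSG had 754 and 765 CPM in total and 1153 and 985 CPM in polysomal RNA, a difference of 0.49 ± 0.14 (adjusted p = 0.0297). SLC16A3 differed by 0.56 ± 0.16 (adjusted p = 0.0379). SLC4A7 lay below the average by -0.52 ± 0.22 and was not called (adjusted p = 0.125 by edgeR's quasi-likelihood test). It was called with the replicate block within each fraction. BSG's call was lost without normoxic polysomal replicate 1 (0.35, adjusted p = 0.20), total replicate 1 (0.49, adjusted p = 0.122) or total replicate 2 (0.50, adjusted p = 0.113). With the culture number as a block it was also lost (0.49, adjusted p = 0.0637), as it was with only the libraries compared (0.49, adjusted p = 0.0621). SLC16A3's call was lost without the same 3 libraries (0.41, 0.57 and 0.55, adjusted p = 0.240, 0.130 and 0.139) and without any of the 4 HPP libraries (0.56 to 0.57, adjusted p = 0.0516 to 0.0551), and with library totals only (0.48, adjusted p = 0.0513). In MCF10A no gene was called, 0 of 7 members against 0% of all genes, where 2 members and 1660 genes had an unadjusted p under 0.05 and DESeq2 called 0 members and 40 genes. The 2 were BSG at 0.99 ± 0.42 and CA9 at 0.92 ± 0.40 (adjusted p = 0.372 for each). Without normoxic polysomal replicate 1 they were 0.34 and 0.31, and with the transcript length offset 0.76 and 0.60.

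The lines were then compared for their response, as the effect in MDA-MB-231 minus the effect in MCF10A in a joint fit of 14298 genes. Each line has a count table of its own, and line and table cannot be told apart in the levels, but each effect was formed within a line. CA12 was called in all 4 comparisons. Its effect of H was lower in MDA-MB-231 by a difference of -3.90 ± 0.50 in total (adjusted p = 0.000634) and -4.14 ± 0.50 in polysomal RNA (adjusted p = 0.000209), and that of HPP by -3.71 ± 0.50 and -3.96 ± 0.49 (adjusted p = 0.000378 and 0.000213). It was the only member called for H, 1 of 7 against 0.266% of genes in total and 1 of 7 against 0.329% in polysomal RNA. For HPP the count was 1 of 7 against 3.31% in total and 2 of 7 against 3.6% in polysomal RNA. The second was CA2, whose fall in MCF10A had no counterpart in MDA-MB-231, with a difference of 2.16 ± 0.55 (adjusted p = 0.0303). This call was lost without any of 6 libraries, with values from 1.67 without the MCF10A HPP polysomal replicate 1 (adjusted p = 0.0873) to 2.27 without the MCF10A normoxic polysomal replicate 1 (adjusted p = 0.0508). The others were MCF10A normoxic polysomal replicate 2 (2.05, adjusted p = 0.0746), and in MDA-MB-231 HPP polysomal replicate 2 (1.73, adjusted p = 0.20), normoxic polysomal replicate 1 (2.14, adjusted p = 0.116) and replicate 2 (2.20, adjusted p = 0.0977). CA2 differed by 2.04 ± 0.56 for H and 1.96 ± 0.57 for HPP in total RNA and by 2.01 ± 0.55 for H in polysomal RNA, not called (adjusted p = 0.184, 0.0611 and 0.175). The total HPP difference was called with the replicate block (2.01, adjusted p = 0.0309) and with library totals only. It was called too without MCF10A HPP polysomal replicate 1 (1.98, adjusted p = 0.0284) or 2 (1.98, adjusted p = 0.0284), or MCF10A NPP total replicate 1 (1.98, adjusted p = 0.0453).

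For the other members no difference in response was detected. CA9's effect of H in total RNA differed by -0.44 ± 0.93, with a 95% interval from -2.38 to 1.50, and without MDA-MB-231 normoxic total replicate 1 the value was 2.18. In polysomal RNA it differed by -0.45 ± 0.88, and by 0.30 without MDA-MB-231 normoxic polysomal replicate 1. SLC16A3's effect of H differed by 0.03 ± 0.42 (-0.84 to 0.90) in total RNA, where the sign turned under other scalings, and by -0.31 ± 0.42 (-1.18 to 0.56) in polysomal RNA, a value of -0.58 without MDA-MB-231 H polysomal replicate 1 and -0.08 without replicate 2. SLC16A1's effect of H in polysomal RNA was lower in MDA-MB-231 by a difference of -1.48 ± 0.71 (unadjusted p = 0.0499, adjusted p = 0.769 by edgeR's quasi-likelihood test), at 11 to 35 counts in that line. SLC16A3 was called in MDA-MB-231 and not in MCF10A, but its responses in the lines were therefore not shown to differ.

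**Figure D4:**
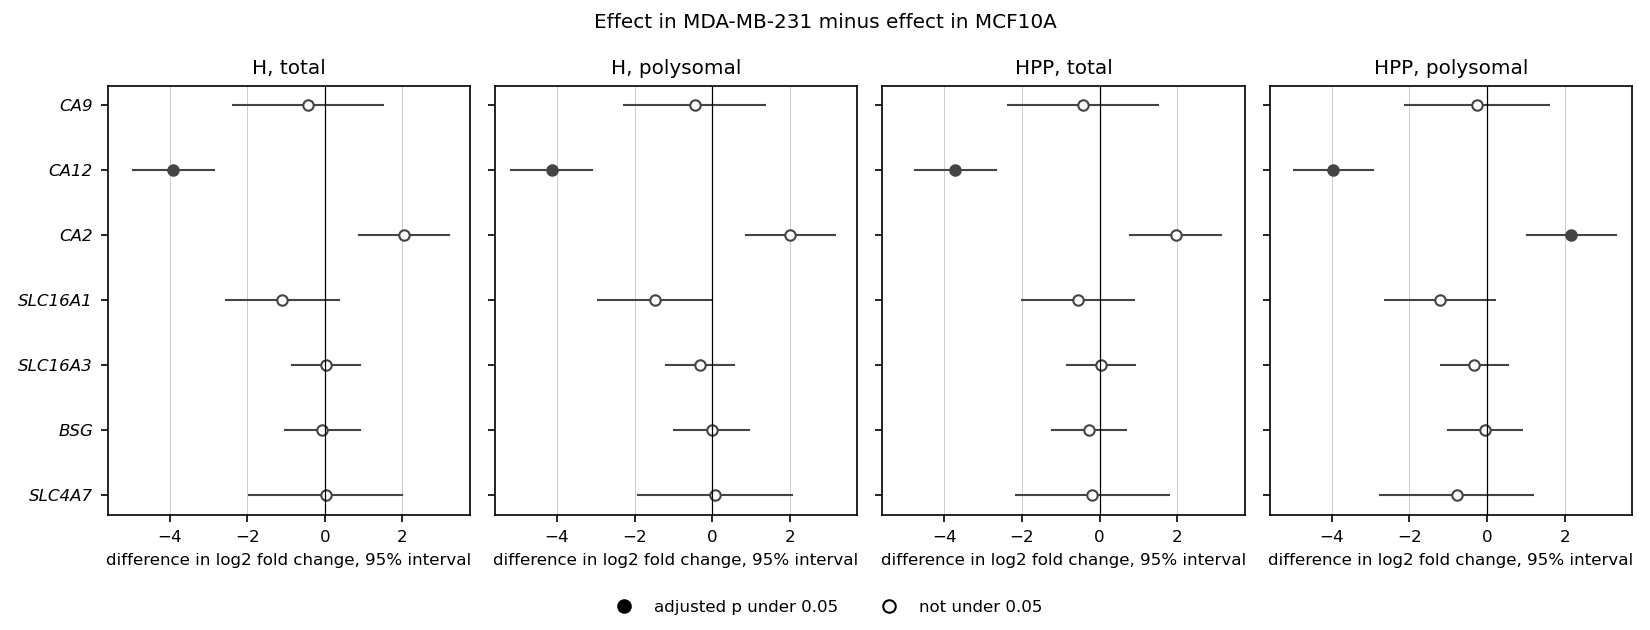
Difference between the lines in the effect of H and HPP, as the log2 change in MDA-MB-231 minus that in MCF10A with its 95% interval, filled where the adjusted p was under 0.05. CA12 is filled in all 4 panels between -4.14 and -3.71, and CA2 in the HPP polysomal panel at 2.16.

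Normoxic levels differed between the lines for most of the 7 genes. In total RNA 5 of 7 were called against 40.7% of genes, and in polysomal RNA 5 of 7 against 45.4%, all 5 lower in MDA-MB-231. SLC16A1 had the largest difference, -7.69 ± 0.57 (log2) in total and -7.44 ± 0.56 in polysomal RNA. CA9 followed with -5.17 and -5.66, then CA2 with -2.57 and -2.95, SLC16A3 with -1.92 and -1.76 and CA12 with -1.80 and -1.28. The CA9 difference in total RNA was -7.79 without MDA-MB-231 normoxic total replicate 1, which leaves the library with 1 count, and -4.48 without replicate 2. The polysomal difference of CA12 was not called without MCF10A normoxic polysomal replicate 2 (-0.69, adjusted p = 0.137) or MDA-MB-231 normoxic polysomal replicate 2 (-1.01, adjusted p = 0.0838), nor with library totals only (-1.02, adjusted p = 0.0558). BSG (-0.05 in total RNA) and SLC4A7 (0.67) were not called, and the sign of the BSG value turned under other scalings. The SLC4A7 value ranged from 0.37 to 1.01 without single libraries, the lowest without MDA-MB-231 normoxic total replicate 1 and the highest without MCF10A normoxic total replicate 1. These level differences cannot be told apart from differences between the separately deposited tables.

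Levels of different genes were set side by side per kilobase of the canonical transcript. In normoxic total RNA of MCF10A, SLC16A3 led with 377 CPM per kilobase, followed by BSG with 293, SLC16A1 with 34.4 and CA9 with 6.16. CA2 at 3.33, SLC4A7 at 2.91 and CA12 at 2.79 had replicate ranges that overlapped and could not be ordered. In hypoxia CA9, at 382 CPM per kilobase, overlapped BSG at 341, below SLC16A3 at 703. CA12 moved to 28.6, below SLC16A1 at 55.9, and CA2 fell to the bottom at 0.990. In MDA-MB-231, BSG led with 390 in N and 425 in H, before SLC16A3 with 138 and 257. SLC4A7 (6.37 and 6) lay above CA12 (1.09 and 0.731) and CA2 (0.781 and 0.940), which overlapped each other. CA9 was among the lowest in N at 0.204, overlapping SLC16A1 at 0.244, and reached 10.4 in H. The order of the 3 highest genes in MCF10A depends on the length used. Over the union of all exons, BSG (129 CPM per kilobase) lay above SLC16A3 in N, and in H CA9 (369) lay above SLC16A3 (198) and BSG (150.1).

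**Figure D5:**
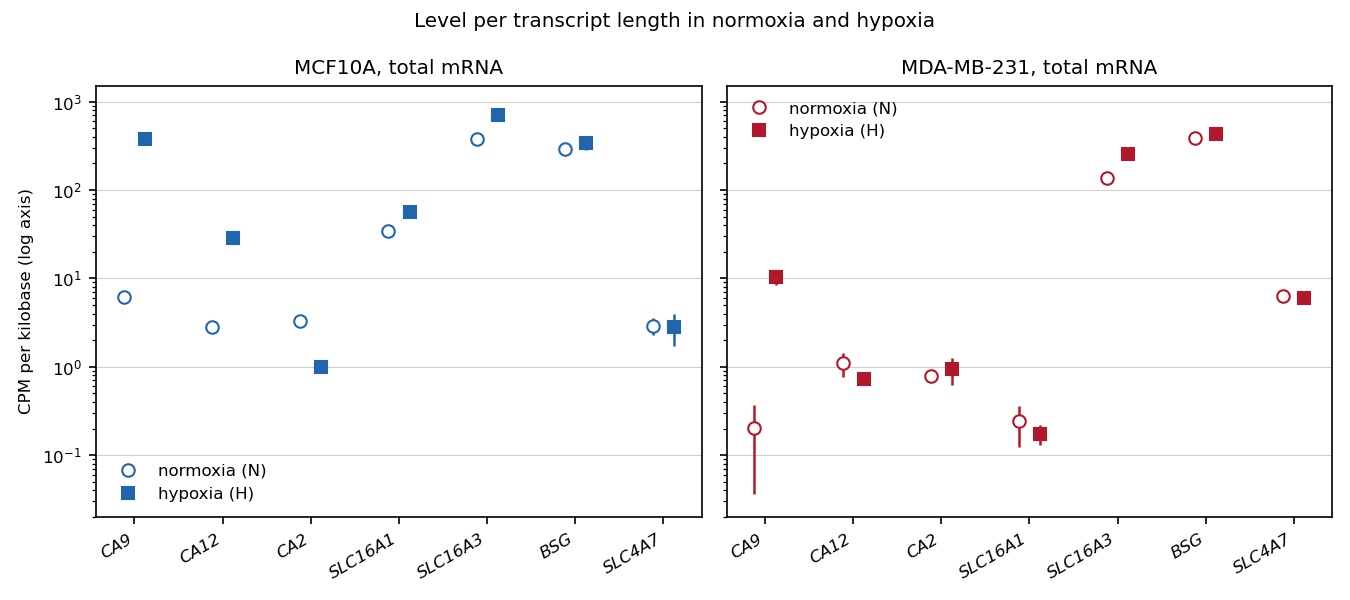
CPM per kilobase of canonical transcript (log axis) of each gene in total RNA, open circles for N and squares for H, with lines from the lower to the higher of 2 replicates. CA9 moves from 6.16 to 382 in MCF10A and from 0.204 to 10.4 in MDA-MB-231, while BSG stays near 293 to 341 and 390 to 425.

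The genes whose pattern was most like that of each member were sought by Pearson's r of log2 CPM over the 16 libraries of a line. These libraries share treatments and normoxic controls, so r describes likeness and nothing further. In MCF10A the closest to CA9 were TREM1 (r = 0.992), P4HA2 (0.990) and RNF122 (0.986), and in MDA-MB-231 P4HA2 (0.990), ALDOC (0.985) and SIGIRR (0.983). P4HA2, a subunit of the collagen prolyl 4-hydroxylase, was thus among the 3 closest in both lines. CA12 in MCF10A was closest to VLDLR (0.992), PPP1R3G (0.989) and SLC38A5 (0.988), and in MDA-MB-231 to BDNF (0.901), IRX3 (0.897) and FAM105A (0.895). SLC16A3 in MDA-MB-231 was closest to the glycolytic enzyme ENO1 (0.985), CLIC3 (0.982) and LY6K (0.967), and in MCF10A to CHST7 (0.979), HLA-B (0.969) and LONP1 (0.964). BSG was closest to BCAP31 (0.977), CD81 (0.975) and LRPAP1 (0.974) in MCF10A and to PRKCDBP (0.974) and PDIA6 (0.969) in MDA-MB-231. For CA2 the highest values were CHAF1B (0.948), TMEM206 (0.937) and PSAT1 (0.932) in MCF10A, and PPID (0.878), RAC1 (0.874) and OIP5 (0.847) in MDA-MB-231. SLC16A1 followed DNAJB4 (0.965), MYO10 (0.963) and ALCAM (0.963) in MCF10A, and at its 11 to 35 counts in MDA-MB-231 no gene exceeded 0.805 (GRB14, then CHRNB1 at 0.80 and TCP11 at 0.788). SLC4A7 was closest to TCF7L2 (0.966), RICTOR (0.948) and ERO1B (0.943) in MCF10A and to THOC2 (0.920), TBC1D32 (0.903) and PGAP1 (0.887) in MDA-MB-231.

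Around the 7 genes, the enzymes that make lactate were followed through a list of 8 genes, all tested. LDHA, the subunit of lactate dehydrogenase favoured in fermenting cells, was called higher in H in both lines, by 1.77 ± 0.34 in MCF10A and 1.63 ± 0.19 in MDA-MB-231 total RNA (adjusted p = 0.0261 and 0.000302). Its levels were 2052 and 2042 CPM in N and 5830 and 8122 in H in MCF10A, and 1868 and 1785 in N and 5284 and 6030 in H in MDA-MB-231. PDK1, which shuts pyruvate out of respiration, was called in MDA-MB-231 (1.67 ± 0.22, adjusted p = 0.000869) and had 18.6 and 19.8 CPM in N and 60.3 and 53.6 CPM in H in MCF10A, a change of 1.57 ± 0.42 that was not called (adjusted p = 0.112). In total RNA of H, 1 of 8 was called in MCF10A against 1.54% of all genes and 2 of 8 in MDA-MB-231 against 1.27%, all of them higher. The list medians were -0.11 and 0.01, beside -0.03 and -0.02 over all genes. With HPP in total RNA, LDHA (1.81 and 1.50) was called in both lines, and PDK1 (1.47) and PDK2 (0.45) in MDA-MB-231. Calls were far more common there, at 14.9% of all genes for MCF10A and 13.2% for the carcinoma line.

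The other carriers of monocarboxylates and their partner EMB, 15 genes of which 9 passed the filter in MCF10A and 11 in MDA-MB-231, gave calls in both directions. With H in total RNA, 0 of 9 were called in MCF10A against 1.54% of all genes, and 1 of 11 in MDA-MB-231 against 1.27%, SLC16A13 at 1.01 ± 0.23 (adjusted p = 0.0470). With HPP, 1 of 9 was called in MCF10A against 14.9% of all genes, SLC16A4 (1.42 ± 0.27), from 5.17 and 5.77 CPM in N to 15.0 and 14.3 CPM. In MDA-MB-231, 5 of 11 were called with HPP in total RNA against 13.2% of all genes. SLC16A13 (1.49) and SLC16A5 (0.97) were higher, and SLC16A14 (-3.00), SLC16A9 (-1.86) and EMB (-0.63) lower. SLC16A14 and SLC16A9 were near the floor in that line, at 0.0279 to 0.625 and 0.117 to 1.42 CPM over its 16 libraries.

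Of the proton pumps and exchangers, the V-ATPase subunit ATP6V0A4 was the one called in total RNA of H. MCF10A had 4.67 and 5.39 CPM of it in N and 12.7 and 13.2 CPM in H, a change of 1.36 ± 0.29 (adjusted p = 0.0399), and 24.7 and 27.4 CPM in HPP (2.37 ± 0.30, adjusted p = 0.000573). In MDA-MB-231 its HPP change was 1.04 ± 0.18 (adjusted p = 0.00277). It was 1 of 22 V-ATPase genes tested that was called with H in MCF10A total RNA and 0 of 24 were called in MDA-MB-231, against 1.54% and 1.27% of all genes. With HPP, 3 of 22 and 2 of 24 were called, against 14.9% and 13.2% of all genes. ATP6V0A2, another form of the same subunit, was lower in both lines (-1.81 and -0.87). None of the sodium-proton exchangers (8 tested in MCF10A and 9 in MDA-MB-231) or other bicarbonate transporters (7 and 8) was called in total RNA with H or HPP. Of the other carbonic anhydrases, 4 of 12 passed the filter in MCF10A and 3 in MDA-MB-231. CA8, a family member without the catalytic activity, was called with HPP in MCF10A (1.54 ± 0.35 in total RNA, adjusted p = 0.0131), and none was called with H. Of 4 proton-sensing receptors, 2 passed the filter in each line and none was called.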

How the data were processed

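Total and polysome-bound poly(A) mRNA was measured by RNA-Seq in 32 libraries of 2 cell lines. The authors mapped reads of 76 bases with STAR 2.5.1b to GRCh38 with GENCODE v24 and made expected counts per gene with RSEM 1.2.28, which were deposited as whole numbers without normalisation for 60554 genes per line. The submitters' processing notes list another genome build than the methods, and no coordinate of the files was used. RSEM shares reads between overlapping genes by estimate. Column names gave every column its sample (0 columns without one). Protein-coding genes that passed filterByExpr were kept (13124 in MCF10A, 13510 in MDA-MB-231, 14298 jointly). They were scaled by TMM and tested over all genes with the edgeR 4.0.16 quasi-likelihood test in R 4.3.3, with 8 groups per line, 8 residual degrees of freedom and Benjamini-Hochberg adjustment over all genes tested. An adjusted p under 0.05 was called. CPM used TMM-scaled totals, with a prior count of 2 before logs. The code for H against N in total RNA was tested on simulated counts that held no length-linked differences between replicates.

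The 7 genes and the other lists were chosen with earlier results of these data known. All 7 are named in every comparison, of each other list at most 4 called genes per line by size of change in total RNA, and for likeness the 3 highest r, of which 1 gene is not reported here. Polysomal values of other genes were chosen after they were seen. Replicate numbers come from the labels. Same-numbered total libraries of MCF10A deviated together (r between 0.283 and 0.778 in all 6 pairs of groups), while the polysomal ones (-0.10 to 0.635) and MDA-MB-231 (-0.187 to 0.347 within fractions) did not in every pair. Replicates differed by more than sampling noise (chi-square per gene 20.0 to 457). Alternatives were DESeq2 1.42.0, other scalings and filters, replicate blocks, an offset for transcript length and leaving out each library.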

Additional observations from a re-analysis of the deposited data

Results flagged for a closer look

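The response of CA12 to low oxygen differed between the lines by the test of the difference itself. The effect in MDA-MB-231 minus that in MCF10A was -3.90 (log2) for H in total RNA, -4.14 for H in polysomal RNA, -3.71 for HPP in total RNA and -3.96 for HPP in polysomal RNA. All 4 were called without any single library, with values from -4.73 to -3.13 over those fits. The response of CA2 to HPP in polysomal RNA also differed, by 2.16, a call that depended on 6 libraries. No cause was tested for either gene.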

How the results depend on the processing

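Of the counts of called members, those that moved by more than 1.5 times belonged to MDA-MB-231. The hypoxia count fell from 4 to 2 when only the libraries compared were fitted, where SLC16A3 lost both calls. The loading count fell from 2 to 1 with the culture number as a replicate block, with library totals only and with only the libraries compared. Leaving out each library gave loading counts of 0 to 2, hypoxia counts of 4 to 6 in MCF10A and 3 to 4 in MDA-MB-231, and HPP counts of 5 to 9 and 3 to 4. The replicate block within each fraction raised the MCF10A hypoxia count from 4 to 6 (CA2) and the HPP count from 6 to 9 (SLC16A1 and SLC16A3). The block common to both fractions gave 4 and 7, with SLC16A3 added in polysomal RNA of HPP (1.03, adjusted p = 0.0379). The within-fraction block also added SLC4A7 to the MDA-MB-231 loading calls, from 2 to 3. The blocks changed no other member call than these and those given with the results. The shares of all genes called in the alternative fits are not given beside these counts. A change in a member count is therefore not read as a result about the members.

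DESeq2 also called CA2 with H in both fractions, and SLC16A3 in both fractions and SLC16A1 in polysomal RNA with HPP, all in MCF10A. In MCF10A polysomal RNA of HPP, library totals only added SLC16A3. There, RLE scaling and the fit with no filter beyond 1 read each added SLC16A1. Several values turned sign, most of them near 0. BSG between the lines was 0.043 with DESeq2 and with RLE scaling, 0.29 with library totals only and -0.15 to 0.041 without single libraries. SLC16A3's line difference was -0.036 with DESeq2 and with RLE scaling, and -0.21 to 0.35 without single libraries. The Te of CA9 in hypoxia in MDA-MB-231 was -0.048 with DESeq2, -0.16 with the culture block, -0.023 with the replicate block, -0.0038 with it within fractions and -2.44 to 0.93 without single libraries. In MCF10A it was -0.37 to 0.56 without single libraries. The same ranges were -0.050 to 0.44 for BSG with H and -0.032 to 0.55 for SLC16A1 with HPP in MCF10A total RNA, -1.58 to 1.93 for SLC4A7 with NPP, -0.63 to 0.0086 for CA12 with HPP in MDA-MB-231 polysomal RNA, and -1.13 to 2.18 and -1.04 to 0.30 for CA9's line difference in total and polysomal RNA. The causes were not tested. With library totals only the median of all genes was 0.49 for the Te of HPP in MCF10A, against 0.0485 with TMM, the largest move of any scaling. With 2 replicates a group and as few as 1 count for CA9, depth and spread limit what the low members can show.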

Other observations

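In polysomal RNA of HPP, where 22.2% of all genes were called in MCF10A and 19.4% in MDA-MB-231, calls outside the 7 genes included 2 of 7 and 3 of 8 other bicarbonate transporters, 1 of 8 and 2 of 9 sodium-proton exchangers and their partners, and 2 of 8 and 4 of 8 genes of lactate production. SLC26A6, an exchanger of bicarbonate and other anions, was higher with HPP in both lines, by 0.95 ± 0.29 (adjusted p = 0.0345) in MCF10A and 0.74 ± 0.17 (adjusted p = 0.00771) in the carcinoma line. SLC4A8, a sodium-driven exchanger of chloride and bicarbonate, was higher by 1.78 ± 0.58 and 1.14 ± 0.29 (adjusted p = 0.0485 and 0.0140). Its level was low, at 0.210 to 1.71 CPM over the libraries of MCF10A and 1.09 to 3.34 CPM over those of MDA-MB-231. CHP1, a calcineurin-like protein that binds sodium-proton exchangers, was lower in the polysomal RNA of both PP242 groups, by -1.41 with NPP and -1.52 with HPP in MCF10A and by -0.67 and -0.51 in MDA-MB-231. LDHB, the lactate dehydrogenase subunit of oxidative tissues, was lower with HPP by -1.34 ± 0.35 (adjusted p = 0.0178) in MCF10A and by -0.76 ± 0.17 (adjusted p = 0.00837) in the carcinoma line, while LDHA was higher by 1.05 and 1.08. These genes were named after their values were seen.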
